A study of Mus musculus with 27 samples.

Results

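Lung fibroblasts in primary culture, from wild-type C57BL/6 mice, were brought to low proliferation along separate routes, and their transcripts were compared gene by gene. In the first state, cells had been kept for 35 d with the ATM kinase inhibitor KU60019 at 3 uM and then for 20 d without it (libraries S22_705, S23_715 and S24_716). In the second, cells had received 10 Gy of X-rays and were collected 10 d later (S25_705, S26_715 and S27_716). The series design names irradiation as its positive control for senescence. These 6 samples were picked by their titles from 27 samples in 9 groups of 3, and no measured value entered the choice. The vehicle levels set beside them come from cells kept for 35 d in DMSO and then 20 d without it, the time-matched vehicle of the KU60019-removed cells, and from cells kept for 15 d in DMSO. No label names the control of the irradiated cells, and DMSO 15 d was used because it is the vehicle group with the shortest culture time. The labels give neither how long cells were cultured before irradiation nor whether the numbers that end the library names mark separate animals. Culture time and treatment therefore cannot be told apart in the direct comparison, and the replicate spread behind each p-value may be technical.

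ATM is a kinase that is switched on by DNA double-strand breaks and passes the signal to p53, which raises the cell cycle inhibitor p21 (Cdkn1a). A lasting arrest, senescence, is also held by p16 from the Cdkn2a locus, and senescent fibroblasts are known for lamin B1 loss and for secreting cytokines, proteases and growth factors. Lung fibroblasts can further take on a contractile, smooth-muscle-like state, in which serum response factor (SRF) and its actin-regulated partners switch on actin, myosin and calponin genes through a promoter element called the CArG box.

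The 6 libraries held between 21884932 and 36276232 counts over genes. Low proliferation was seen in the RNA of both states. Summed over 28 mitosis genes, the level was 83.6 to 110.5 CPM (read counts scaled to a common library size after TMM correction) in KU60019-removed cells and 59.9 to 68.1 CPM in irradiated cells. It was 2116 to 3143 CPM in cells after DMSO removal and 280.3 to 457.9 CPM after 15 d of DMSO. The 10 fibroblast markers were measured in every group, with Col1a1 at 1163 to 2018 CPM in KU60019-removed cells and 1877 to 3967 CPM in irradiated cells. Of these markers 3 were called lower after KU60019 removal (Col1a1, Col3a1 and Pdgfra; 1 without S22_705, S24_716 or S27_716, 2 without S26_715) and 0 higher. Their sum was 9857 to 12384 CPM in KU60019-removed cells and 13439 to 19338 CPM in irradiated cells, without overlap. The sum includes the collagen genes Col1a1, Col1a2 and Col3a1, so it is not a measure separate from the matrix results. Its part in the contractile and matrix results was not tested. The irradiated library S27_716 stood apart by 1.6% of counts from nuclear rRNA genes, against 0.0502% to 0.0832% in the other 5. In the vehicle group after removal, S19_705 had 2.91% and S20_715 had 0.431%.

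Contractile genes were lower and Cdkn2a was higher in KU60019-removed cells than in irradiated cells. Of 18684 genes tested, 1295 (6.93%) differed at an adjusted p under 0.05 by edgeR's quasi-likelihood test. In KU60019-removed cells 639 genes (3.42%) were higher and 656 (3.51%) lower than in irradiated cells, of which 370 (1.98%) and 275 (1.47%) by at least 2-fold. The counts of called list members below are to be read beside these shares. The median log2 fold change over all genes was -2e-04, and all fold changes below are KU60019-removed over irradiated cells unless stated. Leaving out a single library gave 736 calls without S22_705, 638 without S24_716, 648 without S26_715 and 629 without S27_716, while a fit of the 6 libraries alone made 3018 calls. Scaling by library size alone moved the share of calls that were higher from 49.3% to 60.1%, and log2(TPM + 0.1) moved it to 34.8%.

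**Figure D1:**
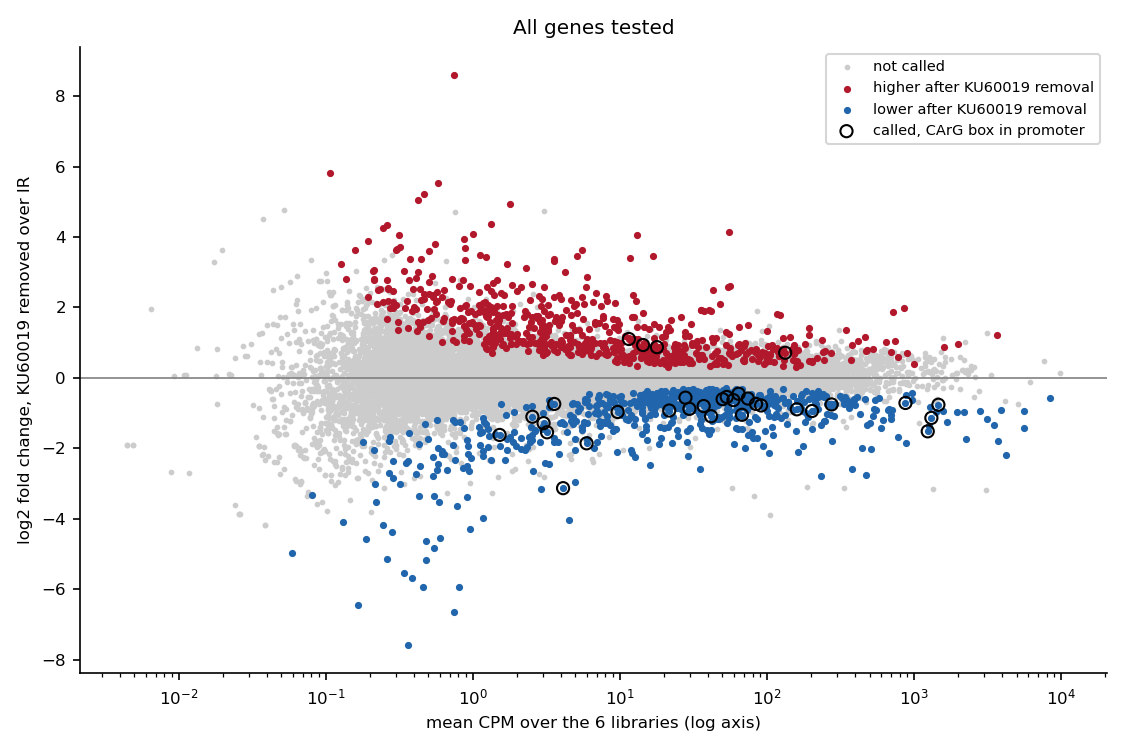
Each point is a gene tested, with its mean CPM over the 6 libraries on a log axis and its log2 fold change (KU60019-removed over irradiated) on the vertical axis; genes without counts in these libraries are not drawn. Red points are the 639 genes called higher, blue the 656 called lower, and rings mark the 32 called genes with a CArG box in the promoter window, 28 of them below 0.

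Among inhibitors of cyclin-dependent kinases, Cdkn2a and Cdkn2b were higher and Cdkn1a and Cdkn1b lower in KU60019-removed cells than in irradiated cells. Cdkn2a, the p16 and ARF locus (gene ENSMUSG00000044303 on chromosome 4, 89274471 to 89294653, minus strand, GRCm38), had 88.6, 99.7 and 90.7 CPM in KU60019-removed cells and 26.5, 9.79 and 10.6 CPM in irradiated cells. Every KU60019-removed library lay above every irradiated one, and S25_705 was the highest irradiated library. The log2 fold change was 2.57 ± 0.33 (SE, adjusted p = 5.24e-05), and it was 3.19 without S25_705. The neighbouring inhibitor gene Cdkn2b, for p15, had 43.5, 41.4 and 47.6 CPM in KU60019-removed cells against 28.5, 20.9 and 22.8 CPM in irradiated cells (0.88 ± 0.16, adjusted p = 0.00145).

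Cdkn1a, for p21 (ENSMUSG00000023067, chromosome 17, 29090976 to 29100727, plus strand), had 804, 746 and 731 CPM in KU60019-removed cells and 1005, 1161 and 1379 CPM in irradiated cells (-0.64 ± 0.18, adjusted p = 0.0307). The groups did not overlap, but the call was lost without any of S22_705, S23_715, S24_716, S26_715 or S27_716 (adjusted p from 0.067 to 0.174). Cdkn1b, for p27, had 36.6, 37.0 and 38.3 CPM after KU60019 removal and 60.2, 55.8 and 63.8 CPM after irradiation (-0.68 ± 0.12, adjusted p = 0.001). Of the 7 inhibitor genes tested, 2 were thus higher and 2 lower (57.1% called, against 6.93% of all genes), and Cdkn1c, Cdkn2c and Cdkn2d did not pass.

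Set against the vehicle cells, the inhibitors stood at different distances. Cdkn2a averaged 93.0 ± 5.91 CPM in KU60019-removed cells and 71.4 ± 27.3 CPM after DMSO removal (SD, n = 3 each), a log2 fold change of 0.38 ± 0.31 that did not pass (adjusted p = 0.324). It averaged 15.6 ± 9.45 CPM in irradiated cells and 26.7 ± 4.69 CPM after 15 d of DMSO (-0.77 ± 0.32, adjusted p = 0.0702). Cdkn1a exceeded the vehicle cells in both states, with 760.1 ± 38.3 CPM in KU60019-removed cells against 496 ± 124 CPM after DMSO removal (0.62 ± 0.18, adjusted p = 0.00612), and 1182 ± 187 CPM in irradiated cells against 163 ± 15.9 CPM after 15 d of DMSO (2.86 ± 0.19, adjusted p = 1.53e-09).

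**Figure D2:**
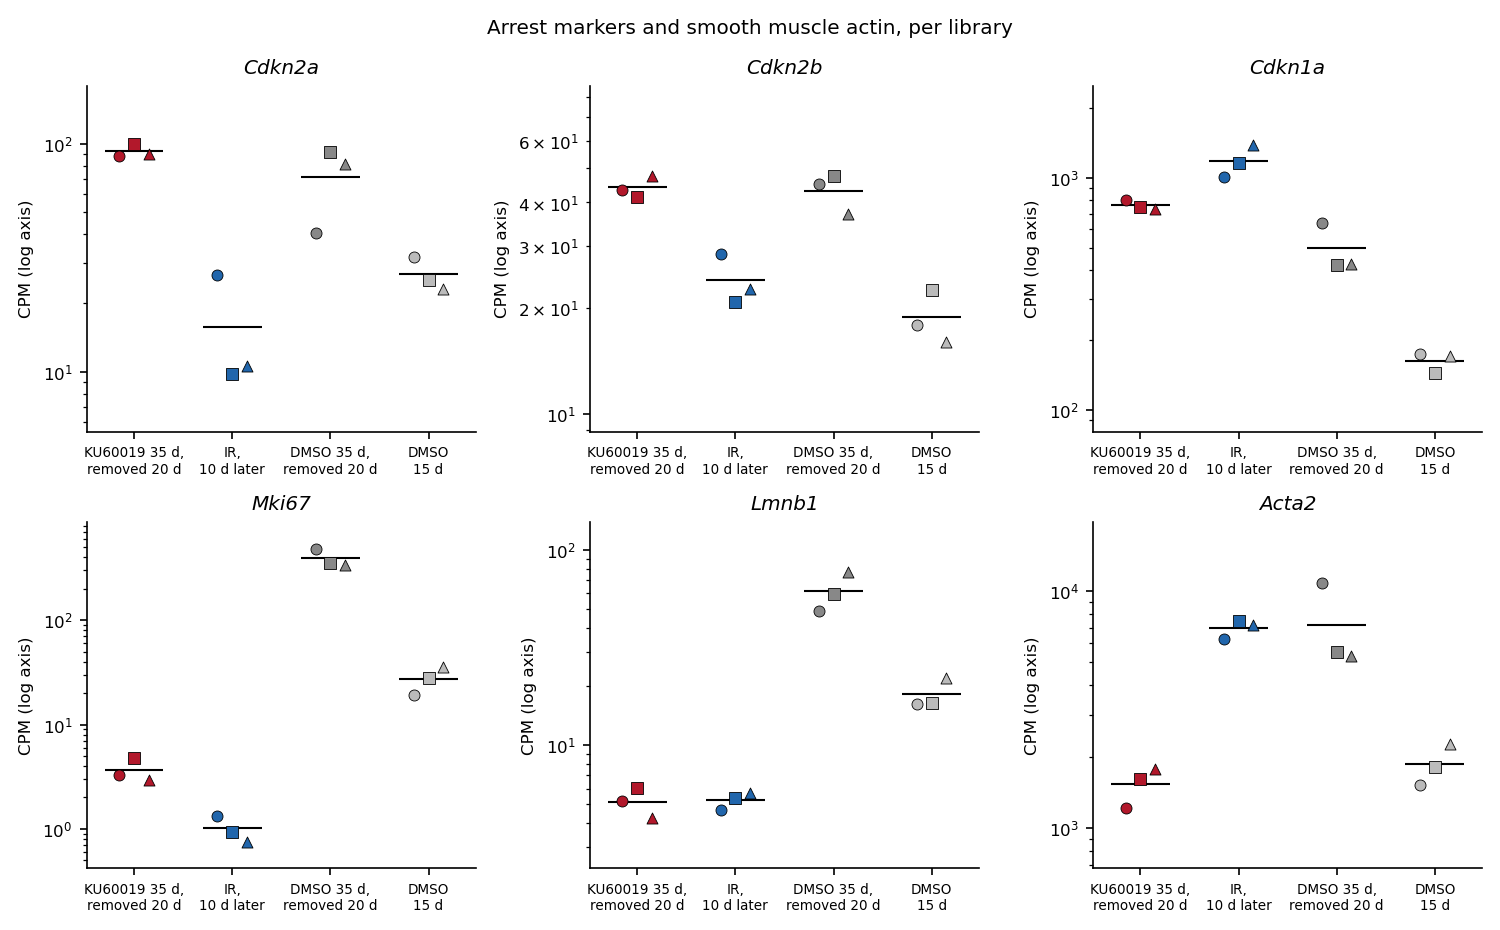
Levels of 6 genes in each library (CPM on a log axis; marker shape, library number; bar, mean of 3) after KU60019 removal, irradiation, DMSO removal and 15 d of DMSO. Cdkn2a separated the KU60019-removed libraries (88.6 to 99.7 CPM) from the irradiated ones (9.79 to 26.5 CPM), Lmnb1 lay between 4.22 and 6.05 CPM in both, and Acta2 was lower after KU60019 removal.

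Mitosis genes were low in both states against the vehicle cells. Of 28, 3 were higher after KU60019 removal than after irradiation (10.7%, against 3.42% of all genes). Mki67, a marker of cycling cells, had 3.32, 4.81 and 2.94 CPM in KU60019-removed cells and 1.34, 0.935 and 0.754 CPM in irradiated cells (1.83 ± 0.29, adjusted p = 4.14e-04). It stood at 392 ± 77.2 CPM after DMSO removal and 27.6 ± 8.3 CPM after 15 d of DMSO. The 3 were Mki67, Nusap1 of the spindle and Hmmr, for a spindle-binding hyaluronan receptor, and 0 of the list were lower, with a median log2 fold change of 0.58 (0.30 without S23_715). The Hmmr call was lost without S22_705, S23_715, S25_705, S26_715 or S27_716 (adjusted p from 0.0815 to 0.199), and on log2(TPM + 1) 0 of the list passed and its median was 0.12. Of 34 DNA replication genes, 1 was higher (2.94%, against 3.42% of all genes) and 0 were lower, and without S22_705 0 were called.

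Lmnb1, for lamin B1, had 5.17, 6.05 and 4.22 CPM in KU60019-removed cells and 4.64, 5.38 and 5.68 CPM in irradiated cells, so the groups overlapped (-0.02 ± 0.18, adjusted p = 0.95). Both were below the vehicles, which averaged 61.6 ± 14.2 CPM after DMSO removal (-3.59 ± 0.19, adjusted p = 2.58e-12) and 18.2 ± 3.35 CPM after 15 d of DMSO (-1.81 ± 0.18, adjusted p = 2.59e-07). Gdf15, a stress-induced growth factor gene, was likewise similar in level, with 57.1, 84.0 and 85.1 CPM in KU60019-removed cells and 54.4, 78.0 and 64.6 CPM in irradiated cells (0.20 ± 0.29, adjusted p = 0.704). Il6, an inflammatory cytokine gene, had 89.4, 116 and 59.9 CPM against 125, 66.0 and 67.8 CPM in irradiated cells (0.04 ± 0.62, adjusted p = 0.981). These misses do not show equal levels.

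Of 38 p53 targets tested, 0 were higher and 4 lower after KU60019 removal (10.5%, against 3.51% of all genes lower). The median log2 fold change of the list was -0.16. A fit of the 6 libraries alone called 3 higher and 7 lower. The 4 were Cdkn1a, Ei24, the death receptor gene Eda2r and the pro-apoptotic gene Bbc3. Ei24, a p53-induced gene of the endoplasmic reticulum, had 71.2, 78.8 and 70.7 CPM in KU60019-removed cells and 109, 112 and 105 CPM in irradiated cells (-0.56 ± 0.09, adjusted p = 5.58e-04). Its call alone of the 4 was kept with each of the 6 libraries left out. Eda2r was lost without any library but S23_715 and Bbc3 without any of the 6, with adjusted p up to 0.165 and 0.146. Mdm2, for the p53 ubiquitin ligase, had 110, 144 and 128 CPM after KU60019 removal and 135, 149 and 154 CPM after irradiation (-0.20 ± 0.13, adjusted p = 0.349).

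The contractile genes were the list with the largest share of calls of the 41 described. Of 20 tested, 0 were higher and 17 lower in KU60019-removed cells (85.0%, against 3.51% of all genes lower). The median log2 fold change was -1.31. Acta2, for smooth muscle actin (ENSMUSG00000035783, chromosome 19, 34241090 to 34255590, minus strand), had 1223, 1608 and 1773 CPM in KU60019-removed cells and 6289, 7477 and 7187 CPM in irradiated cells (-2.19 ± 0.26, adjusted p = 3.04e-05). Every irradiated library was above every KU60019-removed one. The smooth muscle myosin gene Myh11 (ENSMUSG00000018830, chromosome 16, 14194535 to 14291372, minus strand) had 42.0, 65.9 and 69.2 CPM after KU60019 removal and 338, 436 and 453 CPM after irradiation (-2.79 ± 0.31, adjusted p = 1.51e-05). Cnn1, for calponin, had 86.1, 129 and 152 CPM against 699, 953 and 825 CPM in irradiated cells (-2.75 ± 0.39, adjusted p = 1.12e-04). In these genes S22_705 was lowest of the KU60019-removed libraries, and the groups did not overlap. The share of all genes without overlap is not given, so a lack of overlap describes libraries and is no test, here and elsewhere.

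The remaining called members were Actg2 and Lmod1 of smooth muscle, Tagln, Myl9, Tpm1, Tpm2, Smtn, Synpo2, Cald1 and Flna of actin filaments, Actn1, Itga5 and Itgb1 of focal adhesions and Ccn2, a matricellular gene. Lmod1, for leiomodin, which starts actin filaments, had 35.4, 41.7 and 38.2 CPM after KU60019 removal and 169, 167 and 173 CPM after irradiation (-2.14 ± 0.24, adjusted p = 1.81e-05). Itga5, for a fibronectin receptor chain, had 193, 236 and 174 CPM against 612, 946 and 906 CPM (-2.03 ± 0.26, adjusted p = 4.37e-05). Des (-1.27 ± 0.43, adjusted p = 0.0758), Vcl (-1.99 ± 0.79, adjusted p = 0.133) and Ccn1 (-0.22 ± 0.29, adjusted p = 0.666) did not pass. Ccn2 lost its call when any of the 6 libraries was left out (adjusted p from 0.0546 to 0.147), and the other 16 kept theirs. Tagln shares 67.9% of its exon bases with another gene, and whether counting used the strand is not given, so its level is uncertain.

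Summed over the contractile list, KU60019-removed libraries had 12722, 14326 and 14082 CPM and irradiated libraries 33185, 39582 and 36272 CPM. The vehicle libraries after DMSO removal had 38384, 24836 and 23311 CPM, and those after 15 d of DMSO 11107, 10203 and 14105 CPM. Against DMSO removal, 13 of the 20 genes were lower and 2 higher in KU60019-removed cells (median -1.11), where 48.9% of all genes differed, 24.4% higher and 24.5% lower. Against DMSO 15 d, 18 of 20 were higher and 0 lower in irradiated cells (median 1.52), where 30.9% of all genes differed, 14.1% higher and 16.8% lower. Smooth muscle cells or contractile fibroblasts in other numbers and more contractile RNA per cell cannot be told apart in bulk RNA, and this holds for every gene here.

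**Figure D3:**
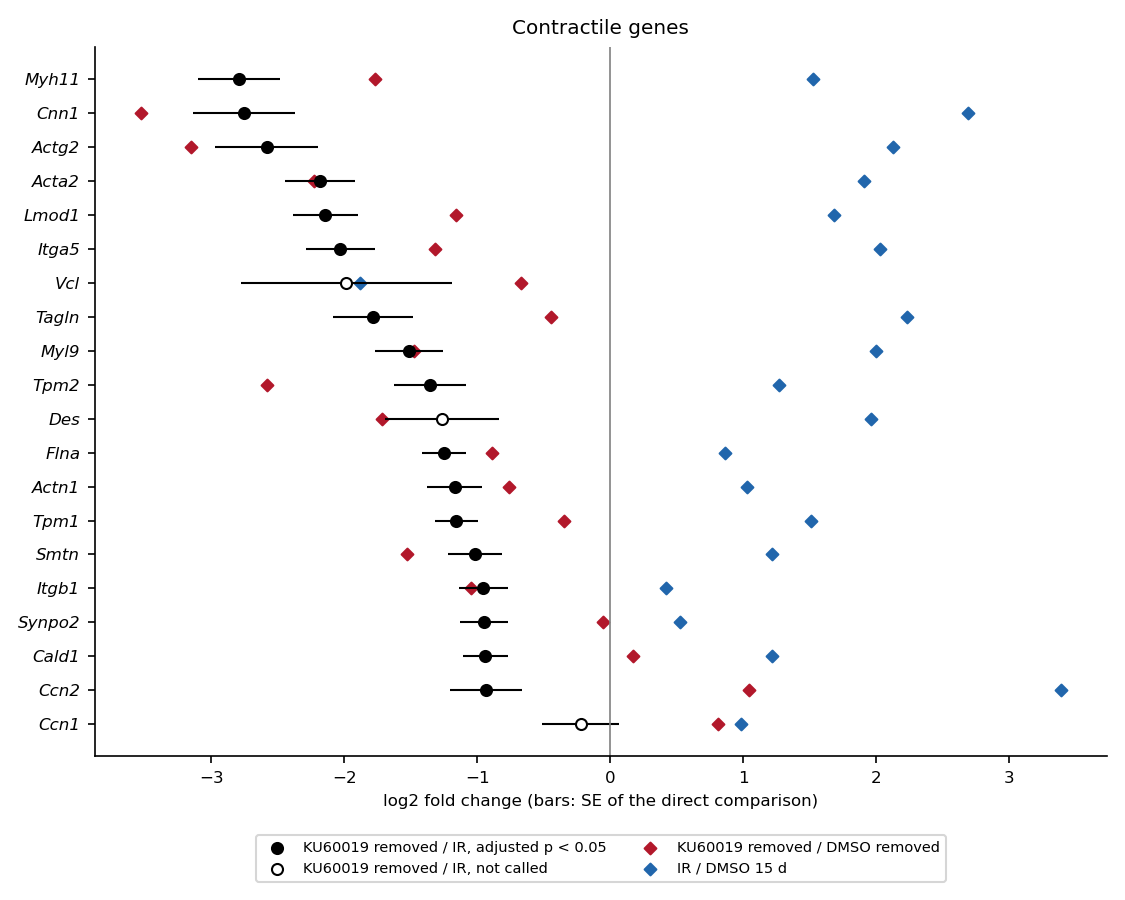
Log2 fold change of each of the 20 contractile genes tested: black, KU60019-removed over irradiated cells with SE (filled if called); red, KU60019-removed over DMSO-removed cells; blue, irradiated over DMSO 15 d cells. The black points all lie below 0 and 17 are filled, while 19 blue points lie above 0 and Vcl does not.

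Promoters of the genes that differed were searched for the CArG box because contractile genes led the falls. The windows ran from 250 bases before to 50 after each gene's start (RefSeq, GRCm38.p6), on both strands, and the search was made after the values were seen. The box was found in 28 of 476 genes called lower that have a window (5.88%), in 4 of 454 called higher (0.881%) and in 195 of 11766 genes tested (1.66%). The pattern was CCWWWWWWGG, with W for A or T and no departure allowed. Of the 16 contractile genes with a window, 2 held this pattern, Myl9 and Vcl. Boxes that depart from it or lie outside the window were not searched. A match describes the letters in this window and is not a binding site. Shown are Asb2, the largest fall among genes with a box, Myl9 and Cnn2, a myosin light chain and a calponin gene, and Srf, the gene of the factor itself, with the boxes in capitals.
Asb2 (chr12:103355952-103356251, minus strand): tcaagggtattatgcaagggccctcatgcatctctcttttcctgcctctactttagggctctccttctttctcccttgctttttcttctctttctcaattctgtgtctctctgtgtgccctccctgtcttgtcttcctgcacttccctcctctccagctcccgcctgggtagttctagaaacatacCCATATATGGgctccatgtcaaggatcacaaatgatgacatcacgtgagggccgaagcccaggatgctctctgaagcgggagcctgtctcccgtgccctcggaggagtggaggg
Myl9 (chr2:156775214-156775513, plus strand): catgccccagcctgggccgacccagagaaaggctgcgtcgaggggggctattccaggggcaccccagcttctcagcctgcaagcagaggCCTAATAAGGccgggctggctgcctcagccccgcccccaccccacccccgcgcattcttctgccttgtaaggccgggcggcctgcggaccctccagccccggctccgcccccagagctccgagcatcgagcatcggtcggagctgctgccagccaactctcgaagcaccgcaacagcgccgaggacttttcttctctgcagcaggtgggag
Cnn2 (chr10:79988350-79988649, plus strand): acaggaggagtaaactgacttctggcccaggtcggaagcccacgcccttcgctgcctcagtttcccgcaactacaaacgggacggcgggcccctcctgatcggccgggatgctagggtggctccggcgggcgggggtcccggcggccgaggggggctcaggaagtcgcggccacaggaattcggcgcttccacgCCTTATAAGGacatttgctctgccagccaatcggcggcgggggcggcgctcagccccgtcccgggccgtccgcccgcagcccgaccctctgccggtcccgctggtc
Srf (chr17:46556113-46556412, minus strand): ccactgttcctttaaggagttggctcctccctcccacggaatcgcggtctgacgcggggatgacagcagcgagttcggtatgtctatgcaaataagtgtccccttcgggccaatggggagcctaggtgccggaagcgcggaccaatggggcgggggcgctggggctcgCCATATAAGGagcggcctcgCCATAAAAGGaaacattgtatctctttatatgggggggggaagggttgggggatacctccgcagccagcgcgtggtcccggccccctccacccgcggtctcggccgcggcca

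The 4 genes whose windows are printed were picked from called genes with their values known, so that all were lower after KU60019 removal is no test. Asb2, for a ubiquitin ligase subunit that targets filamins, had 0.926, 0.660 and 0.935 CPM in KU60019-removed cells and 8.16, 7.65 and 6.39 CPM in irradiated cells (-3.13 ± 0.41, adjusted p = 5.90e-05). Myl9 had 543, 581 and 811 CPM against 1518, 1987 and 2021 CPM (-1.51 ± 0.26, adjusted p = 7.43e-04). Cnn2 had 708, 666 and 623 CPM against 1108, 1096 and 1062 CPM in irradiated cells (-0.71 ± 0.12, adjusted p = 9.05e-04). Srf, with 2 boxes, had 41.4, 52.7 and 36.6 CPM in KU60019-removed cells and 66.3, 60.8 and 62.8 CPM in irradiated cells (-0.54 ± 0.15, adjusted p = 0.0318). Actg1, for cytoplasmic gamma actin, also held a box and averaged 1091 ± 83.9 CPM after KU60019 removal and 1848 ± 116 CPM after irradiation (-0.76 ± 0.15, adjusted p = 0.00246). The 4 genes with a box that were higher were Blvrb, Dusp5, Ica1 and Ager. Their log2 fold changes were 0.71 ± 0.20, 0.87 ± 0.26, 0.94 ± 0.20 and 1.11 ± 0.31 (adjusted p = 0.0321, 0.0478, 0.00466 and 0.0342).

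Other motifs searched were CATTCC, a TEAD motif, in 14.9% of the genes tested and 9 of 16 contractile genes (56.2%), and in 15.9% of genes called higher and 19.3% of those called lower. Also searched was TGACTCA or TGAGTCA, an AP-1 motif, in 4.81% of genes tested, 8.15% of those called higher and 5.25% of those called lower. The CRE motif TGACGTCA was in 3.43%, 3.52% and 2.94% of the same sets. The ISRE motif, of interferon-regulated promoters, was in 3.78% of genes tested, 3.52% of those called higher, 3.57% of those called lower and 20 of 36 interferon response genes (55.6%). Overlaps between matches of different motifs were not counted.

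Matrix genes were lower after KU60019 removal where they differed, with few exceptions. Of 26 collagen genes, 1 was higher and 7 lower (30.8% called, against 6.93% of all genes), with a median log2 fold change of -0.64. Col4a1 and Col4a2, the chains of basement membrane collagen, were the firmest. Col4a1 had 423, 367 and 322 CPM in KU60019-removed cells and 1159, 1116 and 1272 CPM in irradiated cells (-1.67 ± 0.21, adjusted p = 3.28e-05), and Col4a2 fell by 1.42 ± 0.19 (adjusted p = 6.03e-05). The fibril collagen genes Col1a1 (-0.97 ± 0.25, adjusted p = 0.0181), Col3a1 (-1.34 ± 0.34, adjusted p = 0.0197) and Col5a2 (-0.97 ± 0.25, adjusted p = 0.0219), and Col6a2 and Col15a1, were also lower. Without S27_716 the list had 0 higher and 2 lower genes, without S24_716 1 and 2, without S22_705 1 and 3 and without S26_715 0 and 4. In the irradiated library S27_716, Col3a1 had 7441 CPM, against 3678 and 3882 CPM in the other irradiated libraries.

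Col28a1, a collagen gene of peripheral nerve, was the collagen gene that was higher. It had 107, 110 and 72.3 CPM in KU60019-removed cells and 27.9, 9.23 and 10.4 CPM in irradiated cells (2.60 ± 0.60, adjusted p = 0.00931), a call lost without S26_715 (0.0646) or S27_716 (0.0653). Of 41 glycoprotein and proteoglycan genes, 2 were higher, Efemp1 and Omd, and 7 lower. Efemp1, for fibulin-3, had 542, 495 and 445 CPM against 292, 108 and 179 CPM in irradiated cells (1.36 ± 0.31, adjusted p = 0.00903), lost without S26_715 (0.0639) or S27_716 (0.0503). The 7 lower genes were Fn1, Lama1, Loxl2, Postn, Sparc, Sparcl1 and Thbs1. Loxl2, a collagen crosslinking enzyme gene, had 302, 311 and 235 CPM against 472, 638 and 617 CPM in irradiated cells (-1.03 ± 0.20, adjusted p = 0.00275), though 45.8% of its sequence is found in an annotated copy. Apart from Lama1 and Loxl2, the lower ones lost their calls without at least S24_716, and the list then had 2 higher and 2 lower genes. Without S22_705, S26_715 or S27_716 3 were lower, and without S25_705 4.

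Growth factor genes showed the firmest single fall. Tgfb3, for transforming growth factor beta 3 (ENSMUSG00000021253, chromosome 12, 86056745 to 86079041, minus strand), had 196, 174 and 169 CPM in KU60019-removed cells and 582, 784 and 774 CPM in irradiated cells (-1.99 ± 0.18, adjusted p = 1.13e-06). Its irradiated level lay above DMSO 15 d, which averaged 159 ± 9.84 CPM. Of 32 genes in the list, 2 were higher and 6 lower. Igfbp5 (-1.63 ± 0.29, adjusted p = 0.00128) and Igf1r (-0.78 ± 0.14, adjusted p = 0.00149) of the IGF axis were lower, and Igfbp6 was higher, with 223, 223 and 270 CPM against 140.1, 105 and 123 CPM in irradiated cells (0.96 ± 0.20, adjusted p = 0.00392). Vegfa, Tgfb2 and Pgf, genes of secreted growth factors, were lower too. Those 3 lost their calls without S26_715 or without S27_716, with adjusted p up to 0.199. The list then had 1 higher and 3 lower genes, and 2 and 3 without S24_716.

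Secreted signals did not move in a single direction. Of 29 cytokine and chemokine genes, 2 were higher, the chemokine genes Ccl8 and Ccl7, and 2 lower, Il11 and Cxcl14. Called genes made up 13.8% of the list, against 6.93% of all genes. Ccl8 had 28.1, 14.3 and 22.3 CPM in KU60019-removed cells and 3.25, 1.61 and 1.07 CPM in irradiated cells (3.41 ± 0.52, adjusted p = 2.96e-04). Il11, a cytokine of the IL-6 family, had 29.0, 23.2 and 34.1 CPM after KU60019 removal and 47.8, 186 and 109 CPM after irradiation (-1.99 ± 0.31, adjusted p = 3.78e-04). Cxcl14 had 1158, 985 and 1039 CPM against 1519, 5194 and 3794 CPM in irradiated cells (-1.72 ± 0.49, adjusted p = 0.0339). The calls of Ccl7 and Cxcl14 were lost without any library but S25_705, with adjusted p up to 0.201 and 0.169.

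Of 29 protease and inhibitor genes, 4 were higher (Timp1, Ctsk, Mmp11 and Adamts5) and 3 lower (Mmp14, Mmp12 and Ctss). The called ones were 24.1% of this list, against 6.93% of all genes. Timp1, an inhibitor of metalloproteinases, had 3570, 2017 and 2356 CPM in KU60019-removed cells and 1543, 1452 and 1061 CPM in irradiated cells (0.97 ± 0.25, adjusted p = 0.0205), a call lost without S22_705 (0.145), S26_715 (0.0548) or S27_716 (0.122). Mmp14, a membrane-bound collagenase, had 291, 287 and 246 CPM after KU60019 removal and 431, 429 and 409 CPM after irradiation (-0.62 ± 0.15, adjusted p = 0.0116), lost without S24_716 (0.088) or S26_715 (0.0514). Without S26_715 the list had 0 higher and 1 lower gene, without S27_716 0 and 3, without S23_715 1 and 2, without S24_716 2 and 1 and without S22_705 2 and 3. Rspo3, for a WNT signal enhancer, had 238, 308 and 271 CPM in KU60019-removed cells and 134, 113 and 105 CPM in irradiated cells (1.21 ± 0.20, adjusted p = 5.60e-04). It was the 1 higher gene of 34 in the WNT and BMP list, where 3 were lower (Sfrp2, Wnt2 and Wnt9a). Called genes made up 11.8% of that list, against 6.93% of all genes. Rspo3 kept its call with each library left out, while those 3 lost theirs without S23_715, S24_716 or S27_716, among others, with adjusted p up to 0.175.

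Of 27 oxidative stress genes, 4 were higher (14.8%, against 3.42% of all genes higher) and 0 lower. The 4 were the metallothionein genes Mt1 and Mt2, which bind metals, and the glutathione transferase genes Gsta3 and Gsta4. Mt1 had 1500, 834 and 1071 CPM in KU60019-removed cells and 449, 230 and 243 CPM in irradiated cells (1.89 ± 0.36, adjusted p = 0.00246). Gsta4 had 27.5, 23.9 and 24.8 CPM against 8.83, 9.17 and 8.61 CPM in irradiated cells (1.52 ± 0.31, adjusted p = 0.00413). Both groups of libraries were well apart, and these 4 calls were kept with each library left out. Mt2 shares 73.5% of its exon bases with another annotated gene.

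Of 35 lysosome genes, 5 were higher (Cd68, Neu1, Naglu, Ctsh and Npc2) and 0 lower, with a median log2 fold change of 0.20. The higher ones made up 14.3% of the list, against 3.42% of all genes. Cd68, for a lysosomal membrane protein also used as a macrophage marker, had 27.6, 19.6 and 21.8 CPM in KU60019-removed cells and 8.16, 10.3 and 7.90 CPM in irradiated cells (1.39 ± 0.17, adjusted p = 3.28e-05). The other 4 are lysosomal enzymes or, for Npc2, a cholesterol carrier, and 1 gene of the list was called without S22_705, S26_715 or S27_716 and 2 without S24_716. Of 25 genes of the ATF4 and endoplasmic reticulum stress list, 4 were higher (Ddit3, Pdia6, Creld2 and Hsp90b1) and 0 lower. A fit of the 6 libraries alone called 4 higher and 2 lower, and DESeq2 6 and 1. Without S26_715 or S27_716 0 were called, without S23_715 or S24_716 1 was, and without S22_705 2 were. Ddit3, for the stress transcription factor CHOP, had 273, 305 and 391 CPM in KU60019-removed cells and 166, 158 and 134 CPM in irradiated cells (1.08 ± 0.28, adjusted p = 0.0227). Its call was lost without S24_716 (0.113), S25_705 (0.0508), S26_715 (0.0696) or S27_716 (0.108).

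Of 26 glycolysis and hypoxia genes, 0 were higher and 3 lower: Egln3, an oxygen sensor gene, the lactate exporter gene Slc16a3, and Vegfa. The lower ones made up 11.5% of the list, against 3.51% of all genes. Without S24_716, S26_715 or S27_716 0 were called, without S22_705 1 was lower, and without S23_715 or S25_705 2 were.

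Immediate early genes, which respond within minutes to growth signals or stress, were higher where called. Of 21 tested, 3 were higher (14.3%, against 3.42% of all genes higher) and 0 lower, with a median log2 fold change of 0.72. The 3 were Fosb, Fos and Ier2. Fosb, an AP-1 subunit gene (chromosome 7, 19302696 to 19310051, minus strand), had 32.7, 252 and 31.1 CPM in KU60019-removed cells and 6.55, 5.72 and 5.59 CPM in irradiated cells (4.14 ± 0.72, adjusted p = 9.50e-04). S23_715 was highest of all 6 by far, and without it the log2 fold change was 2.43 (adjusted p = 0.00815). Fosb and Fos did not pass in a fit of the 6 libraries alone. Fos had 98.3, 363 and 108 CPM against 70.9, 51.03 and 43.2 CPM (1.79 ± 0.46, adjusted p = 0.0202), and 0.91 (adjusted p = 0.157) without S23_715; it also lost its call without S26_715 (0.0829) or S27_716 (0.105). The median of the list was 0.02 without S23_715. Ier2, an early response gene, had 199.7, 376 and 263 CPM in KU60019-removed cells and 124, 105 and 87.5 CPM in irradiated cells (1.41 ± 0.24, adjusted p = 8.09e-04) and kept its call with each library left out.

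Of 47 interferon response genes, 0 were higher and 4 lower in KU60019-removed cells (8.51%, against 3.51% of all genes lower). Among them were Irf9, Gbp2 and Mx2, and the list had a median of -0.55. Summed over the list, KU60019-removed libraries had 2019, 2015 and 1874 CPM and irradiated libraries 3283, 2068 and 1793 CPM. The groups thus overlapped, with S25_705 far above the KU60019-removed libraries, S26_715 just above them and S27_716 below them. Without S25_705, 1 gene was higher and 0 lower, with a median of -0.24. Without S22_705, S24_716 or S26_715, 0 were called in either direction, and without S27_716 5 were lower. DESeq2 called 9 lower, and 11 were lower, with a median of -0.72, without the 4 libraries above 0.4% rRNA.

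**Figure D4:**
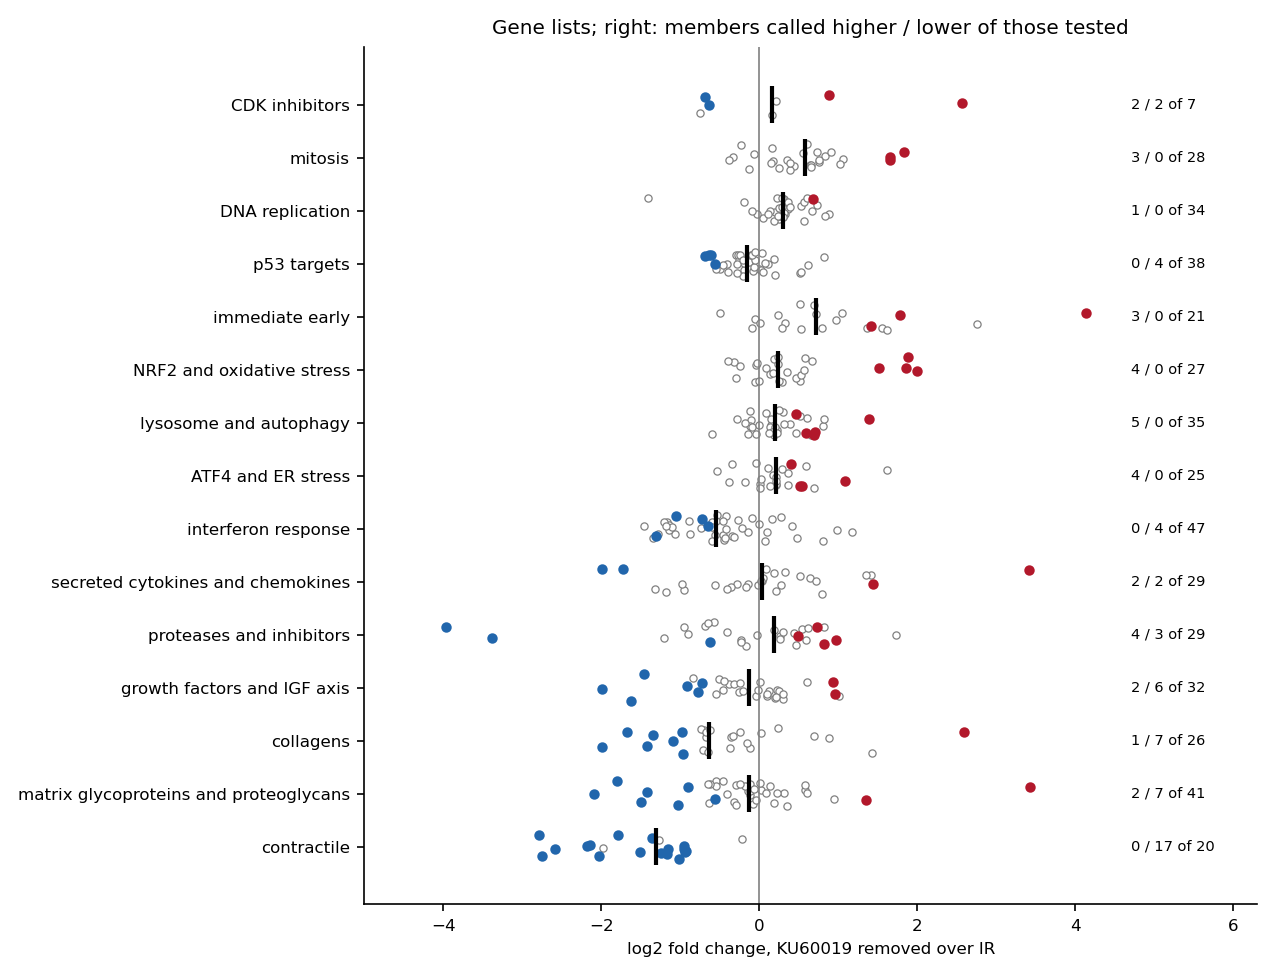
Log2 fold change (KU60019-removed over irradiated cells) of every tested member of 15 gene lists; red, called higher; blue, called lower; open, not called; black bar, median; right, members called higher and lower of those tested. The contractile list stands lowest with a median of -1.31 and 17 of 20 called lower, against 3.51% of all genes.

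Among the largest rises were genes with no shared list. Besides Fosb, Ccl8, Col28a1 and Cdkn2a, the 12 largest were Lce1g, Esm1, Irx1, Elobl, Penk, Comp, Syngr1 and Gal. Lce1g, a late cornified envelope gene of skin, had 26.3, 23.6 and 24.8 CPM in KU60019-removed cells and 2.01, 1.75 and 0.577 CPM in irradiated cells (4.07 ± 0.49, adjusted p = 3.04e-05). Esm1, for the secreted proteoglycan endocan, had 33.8, 34.5 and 24.4 CPM against 3.11, 2.80 and 2.40 CPM (3.47 ± 0.40, adjusted p = 1.81e-05). Irx1, an Iroquois transcription factor gene, had 8.34, 12.8 and 7.13 CPM against 1.42, 0.584 and 0.488 CPM in irradiated cells (3.45 ± 0.43, adjusted p = 3.82e-05; 4.11 without S25_705).

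The neuropeptide precursor genes Penk and Gal were both on this list. Penk, for proenkephalin, had 6.02, 7.68 and 5.74 CPM in KU60019-removed cells and 0.859, 0.555 and 0.488 CPM in irradiated cells (3.32 ± 0.45, adjusted p = 8.14e-05). Gal, for galanin, had 12.7, 6.95 and 10.9 CPM against 1.10, 1.93 and 2.08 CPM (2.58 ± 0.53, adjusted p = 0.00383). Syngr1, for the synaptic vesicle protein synaptogyrin, had 8.91, 12.6 and 10.3 CPM against 1.18, 1.81 and 1.33 CPM in irradiated cells (2.88 ± 0.33, adjusted p = 1.81e-05). Comp, a cartilage matrix gene, had a log2 fold change of 3.00 ± 0.75 (adjusted p = 0.0169) and lost its call without S25_705 (0.0541), S26_715 (0.0884) or S27_716 (0.0582). Elobl rose by 3.38 ± 0.48 (adjusted p = 1.50e-04). Against DMSO-removed cells, Irx1, Ccl8, Elobl, Penk and Cdkn2a did not pass (adjusted p from 0.11 to 0.791), where 48.9% of all genes differed. Irx1 averaged 9.42 CPM in KU60019-removed cells and 11.5 CPM after DMSO removal, Penk 6.48 and 5.81 CPM, and Elobl 6.54 and 9.21 CPM. Fosb, Lce1g, Esm1, Comp, Syngr1, Col28a1 and Gal were higher than in DMSO-removed cells too.

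The epidermal-type list had 3 higher genes (37.5%, against 3.42% of all genes higher) and 0 lower of 8 tested. Crct1, of the epidermal differentiation complex, had 68.1, 79.4 and 72.3 CPM in KU60019-removed cells and 15.9, 14.2 and 8.56 CPM in irradiated cells (2.50 ± 0.47, adjusted p = 0.00200). S100a8, for a calprotectin subunit, had 14.2, 7.06 and 13.5 CPM against 2.36, 2.05 and 2.08 CPM (2.42 ± 0.30, adjusted p = 3.82e-05). Ivl, for involucrin, was the third (1.91 ± 0.54, adjusted p = 0.0337) and lost its call without any library but S25_705. Epithelial markers were near the floor in both states, with a sum over 8 genes of 0.502 to 1.05 CPM after KU60019 removal and 0.976 to 1.29 CPM after irradiation.

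**Figure D5:**
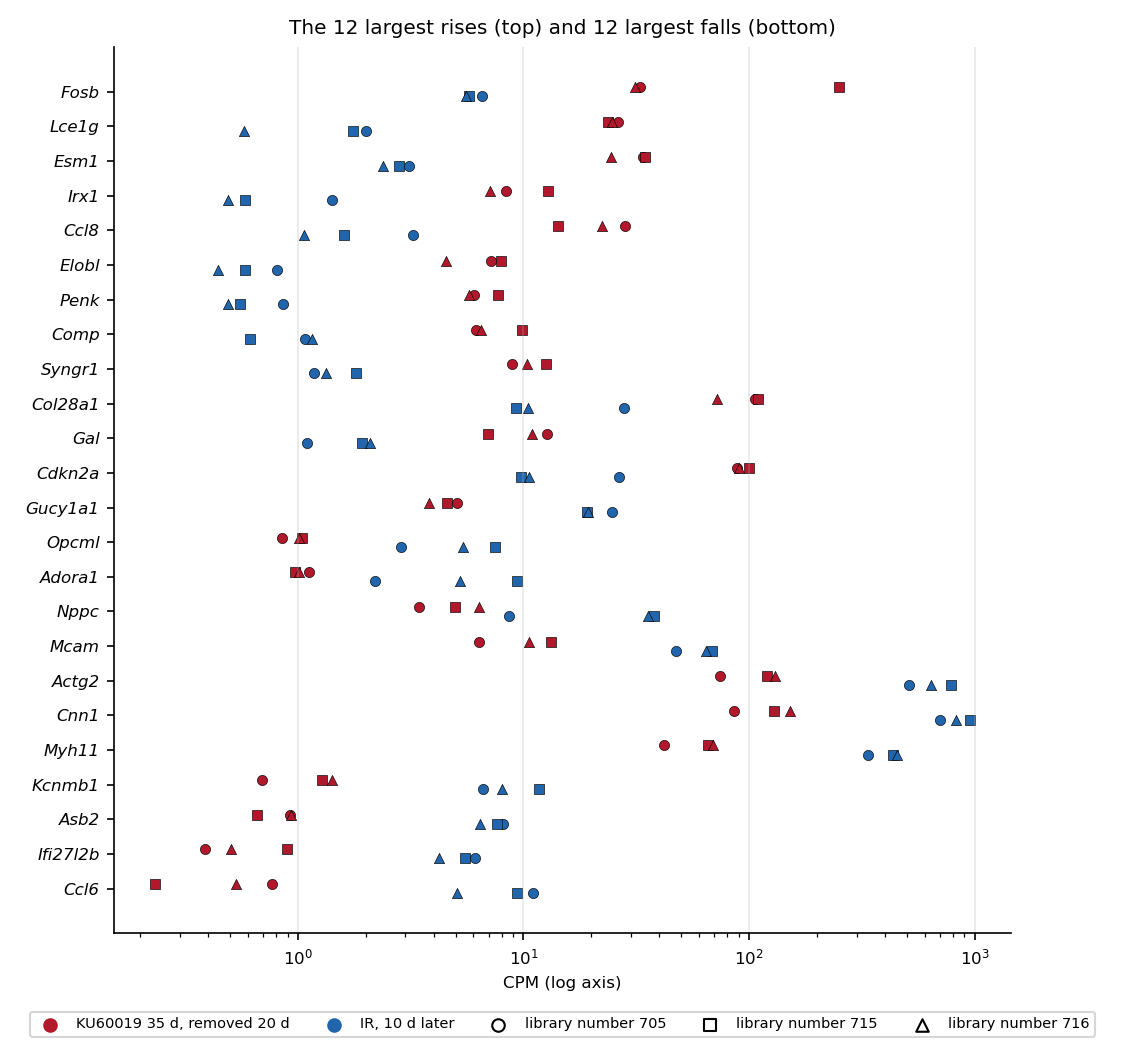
CPM on a log axis of the 12 genes with the largest rises (upper rows) and the 12 with the largest falls (lower rows) among called genes that averaged 5 CPM or more in the higher state; red, KU60019-removed libraries; blue, irradiated; marker shape, library number. The colours do not overlap in any row, as the selection requires, and the square of Fosb at 252 CPM is S23_715.

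The 12 largest falls were led by Ccl6, a chemokine gene of myeloid cells, and held several smooth muscle genes. Ccl6 had 0.772, 0.233 and 0.534 CPM in KU60019-removed cells and 10.97, 9.38 and 5.06 CPM in irradiated cells (-4.04 ± 0.62, adjusted p = 2.91e-04). Kcnmb1, a smooth muscle potassium channel subunit gene, had 0.695, 1.28 and 1.42 CPM against 6.60, 11.7 and 8.03 CPM (-2.94 ± 0.41, adjusted p = 1.05e-04). Gucy1a1, a subunit of the nitric oxide receptor guanylate cyclase, had 5.06, 4.58 and 3.82 CPM against 24.7, 19.1 and 19.4 CPM in irradiated cells (-2.24 ± 0.32, adjusted p = 1.71e-04). Asb2, Myh11, Cnn1 and Actg2 were also among the 12.

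The others were Ifi27l2b, Mcam, Nppc, Adora1 and Opcml. Nppc, for C-type natriuretic peptide, had 3.43, 4.97 and 6.36 CPM in KU60019-removed cells and 8.64, 38.0 and 35.5 CPM in irradiated cells (-2.47 ± 0.44, adjusted p = 0.00130). Adora1, an adenosine receptor gene, had 1.12, 0.970 and 1.01 CPM against 2.20, 9.35 and 5.24 CPM (-2.43 ± 0.56, adjusted p = 0.00948) and lost its call without S24_716 (0.0513) or S26_715 (0.091, log2 fold change -1.83). In both genes S25_705 was the lowest irradiated library. Ifi27l2b fell by 3.16 ± 0.51 (adjusted p = 4.66e-04) and Opcml, a cell adhesion gene, by 2.42 ± 0.35 (adjusted p = 1.59e-04).

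Of 30 positional and lung mesenchyme regulators, 6 were lower (Pdgfra, Gli2, Tbx2, Irx3, Hoxb5 and Wnt2) and 1 higher (Twist1). These were 23.3% of the list, against 6.93% of all genes called. Without S24_716, S26_715 or S27_716 3 were lower and 0 higher, without S22_705 3 and 1, and without S23_715 4 and 0. Pdgfra, for the receptor of platelet-derived growth factor, had 177, 178 and 155 CPM in KU60019-removed cells and 293, 351 and 395 CPM in irradiated cells (-1.03 ± 0.21, adjusted p = 0.00395). Gli2, a Hedgehog transcription factor gene, had 3.09, 3.03 and 2.91 CPM against 6.197, 7.36 and 7.59 CPM (-1.23 ± 0.25, adjusted p = 0.00380). Tbx2 was lower too (-0.73 ± 0.16, adjusted p = 0.00674). Of 16 imprinted genes, 2 were lower and 1 higher (18.8% called). Peg3 (-1.48 ± 0.27, adjusted p = 0.00149) and Zim1 (-1.66 ± 0.30, adjusted p = 0.00145), which lie in the same domain, were lower. Slc22a18, an organic cation transporter gene, was higher (1.44 ± 0.34, adjusted p = 0.0105) and lost its call without S26_715 (0.0696) or S27_716 (0.0684). Pdgfra, Gli2, Tbx2, Peg3 and Zim1 kept their calls with each library left out.

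Markers of other cell types were called in both directions, most of them at low levels. Higher after KU60019 removal were 1 of 6 mesothelial, 1 of 5 chondrocyte and 1 of 2 neuronal markers tested, with 0 lower. Each of these calls was lost with some library left out. Skeletal muscle markers summed to 95.1 to 176 CPM after KU60019 removal and 232 to 450 CPM after irradiation. Adipocyte markers summed to 81.2 to 188 CPM and 32.0 to 92.8 CPM. In both lists 0 were called, of 2 and 1 tested. Of 10 endothelial markers, 5 were lower and 0 higher in KU60019-removed cells (Emcn, Cldn5, Pecam1, Erg and Tie1). Without S22_705, S24_716, S25_705 or S27_716 3 were lower, and on log2(TPM + 1) 1 was. Pecam1 had 25 reads in the 3 KU60019-removed libraries and 156 in the 3 irradiated ones, Cldn5 1 and 68, and Emcn 1 and 90. Of 9 macrophage markers tested, 3 were lower, Tyrobp with 0 and 74 reads, C1qa with 3 and 96 (call lost without S24_716 or S25_705) and C1qb with 1 and 156, and Cd68 was higher. Adgre1 and Ptprc had 0 reads in KU60019-removed cells and 20 and 13 in irradiated cells. The summed level of the endothelial list was 14.6 to 22.2 CPM after KU60019 removal and 15.7 to 19.5 CPM after irradiation, and that of the macrophage list 88.6 to 123 CPM and 77.3 to 113 CPM. The part of such cells in the falls of Ccl6 and Ctss, which macrophages express, was not tested.

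Pericyte markers were the most abundant of those lists in both states. Of 7, 0 were higher and 4 lower (57.1%, against 3.51% of all genes lower): Mcam, Kcnj8, Abcc9 and Pdgfrb. Mcam, a mural cell adhesion gene, had 6.37, 13.2 and 10.6 CPM in KU60019-removed cells and 47.6, 68.3 and 64.6 CPM in irradiated cells (-2.58 ± 0.37, adjusted p = 1.36e-04). Pdgfrb, for the receptor that mural cells use, had 313, 274 and 259.9 CPM against 505, 405 and 480.3 CPM in irradiated cells (-0.71 ± 0.14, adjusted p = 0.00269). Abcc9 lost its call without S23_715, S24_716, S26_715 or S27_716 (adjusted p up to 0.141). Summed over the list, the level was 297 to 349 CPM after KU60019 removal and 524 to 608 CPM after irradiation. These values stand beside the contractile genes, which mural cells also express, and their part in the contractile result was not tested. Of 8 Schwann cell markers tested, 0 were called in either direction.

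More genes were called in the comparisons with vehicle cells than in the direct comparison. KU60019-removed cells differed from DMSO-removed cells in 9130 genes (48.9%), 4554 higher and 4576 lower, and scaling by library size alone put 70.4% of its calls on the higher side against 49.9% here. Irradiated cells differed from DMSO 15 d cells in 5765 genes (30.9%), 2632 higher and 3133 lower. The vehicles themselves stood far apart in proliferation, with Mki67 at 392 ± 77.2 CPM after DMSO removal and 27.6 ± 8.3 CPM after 15 d of DMSO, so these effects also hold the difference between vehicles. The 2 effects differed from each other in 7164 genes (38.3%), and the comparisons share no libraries with each other but share them with the direct comparison. In that scale, mitosis genes had a median of -5.17 after KU60019 removal, with 28 of 28 lower (24.5% of all genes), and of -2.89 after irradiation, with 28 of 28 lower (16.8% of all genes).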

How the data were processed

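RNA levels were taken from the deposited table of raw counts per gene, which the authors made with featureCounts against mm10, per the submitters' processing notes. The deposited TPM table of the authors served as an alternative. Not given in the sources used here were the aligner, the annotation release and the strand setting. The count table has 48440 gene rows. Genes were kept with edgeR's filterByExpr at a minimum count of 10, scaled by TMM and fitted over all 27 libraries in 9 groups with edgeR 4.0.16 (R 4.3.3), using the quasi-likelihood F-test and Benjamini-Hochberg adjustment over 18684 genes at 0.05. The SE of a fold change is its size over the root of F, an approximation. CPM is counts scaled to a common TMM-corrected library size. Alternatives used DESeq2 1.42.0, and limma 3.58.1 on log2(TPM + 1) or log2(TPM + 0.1). The steps were tested on simulated data. Depth was 21884932 to 36276232 counts in the 6 libraries compared, and it limits genes of few reads.

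Named genes were a panel of senescence genes, the 12 largest rises and falls (at least 5 CPM in the higher group, no overlap of libraries, no predicted names or near-identical copies), the 4 members of lowest p in each list and the 6 most positive and 6 most negative differences of vehicle-referenced effects. Other called list members, and genes with a CArG box, were named after their values were seen. A few genes that the rule chose are not reported here. The members and the 41 gene lists were chosen with earlier results of these data known. Copies were sought as shared 50-base words, and 20% shared marked a copy. Chi-square per gene between libraries of 1 group was 31.4 to 84.9, so none was counted as a duplicate.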

Additional observations from a re-analysis of the deposited data

Results flagged for a closer look

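The effect of KU60019 removal against DMSO removal differed from the effect of irradiation against DMSO 15 d, by edgeR's test of the difference itself, in 7164 genes (38.3% of 18684). The difference is the log2 effect after KU60019 removal minus that after irradiation, and the vehicle groups differ in culture time, which cannot be told apart from treatment. Of the panel, Cdkn1a (-2.24), Mdm2 (-1.05), Mki67 (-2.00) and Lmnb1 (-1.78) had lower log2 effects after KU60019 removal than after irradiation. Those of Cdkn2a (1.15) and Il6 (4.16) were higher. The effects of Cdkn1a (0.62 and 2.86) were above 0 and passed in both states. For Mdm2 the effect of irradiation passed (1.19 ± 0.13, adjusted p = 6.12e-07). That of KU60019 removal did not (0.13 ± 0.13, adjusted p = 0.391). Mki67 was higher after KU60019 removal in the direct comparison (1.83), with vehicles at 392 CPM after DMSO removal and 27.6 CPM after 15 d. Mdm2, Lmnb1 and Il6 did not pass there, and the Il6 vehicles averaged 8.84 and 157 CPM.

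The most positive differences were those of Shisa3 (11.69), Wfdc21 (10.58), Wfdc17 (9.37), Ngfr (7.35), Il33 (7.18) and Bmp3 (7.15). Shisa3 and Wfdc21 had no reads after DMSO removal, so their values depend on the fitted prior count and are no bound. The most negative were those of Acta1 (-7.71), Mir6236 (-7.36), Slc14a1 (-7.34), Lars2 (-7.02), Il18rap (-6.75) and Cck (-6.56). Mir6236 and Lars2 reached 913.8 and 6568 CPM in S27_716, the irradiated library with 1.6% of counts from rRNA genes, and S19_705 of the DMSO-removed group had 2.91%. The part of rRNA in these values was not tested. No gene named in this paragraph passed edgeR's test in the direct comparison (adjusted p from 0.053 to 0.933). Bmp3 averaged 46.7 CPM in KU60019-removed and 42.6 CPM in irradiated cells, with vehicles at 0.613 CPM after DMSO removal and 79.2 CPM after 15 d of DMSO. For Il18rap these were 0.726 and 0.654 CPM, with vehicles at 11.2 and 0.0849 CPM. The differences thus also hold the difference between vehicles.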

How the results depend on the processing

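The 1295 calls of KU60019-removed over irradiated cells became 2025 with DESeq2, 3018 in a fit of the 6 libraries alone, 806 on log2(TPM + 1), 676 on log2(TPM + 0.1), 760 without the 4 libraries above 0.4% rRNA (chosen after seeing the data) and 629 to 1138 with 1 library left out. On TPM the median of all genes moved by -0.141 and -0.178. KU60019-removed over DMSO-removed cells had 9130 calls, 5487 in a fit of those groups alone and 5596 without the rRNA libraries. Irradiated over DMSO 15 d cells had 5765, and 10075 with the DMSO-removed cells as control. The difference of these effects had 7164, with 4759 in the compared groups alone, 3930 without the rRNA libraries and 1295 with DMSO-removed cells as control of both, which makes it the direct comparison. Other total counts stayed within 1.5 times. Which side was larger in the direct comparison changed with the setting, from 656 lower against 639 higher in the main fit. The lower side was the smaller with RLE size factors (607 against 678 higher), DESeq2 (973 against 1052) and library size alone (438 against 659). It was also the smaller in the fit of the 6 libraries alone (1456 against 1562) and with the replicate block (657 against 664). On log2(TPM + 1) it was the larger (488 against 318), but the smaller without the filter on low TPM (540 against 647). No called gene that the naming rule chose changed sign. Same-numbered libraries deviated with r = 0.11, 0.01 and -0.18, which does not meet the bar set for pairing, and what the numbers mark is unknown; with the replicate block there were 1321 calls. Of 145 called genes that the naming rule chose, 72 lost the call with some library left out. The causes were not tested. Few reads limit the markers of other cell types.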
